A study of Nasonia vitripennis with 15 samples.

Results

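In testes of white nymphs of the jewel wasp Nasonia vitripennis, 145 transcripts of 143 genes stood about 2-fold higher after 10 h at 25 °C than at 0 h and then stayed near that level up to 24 h. They were chosen from 26279 transcripts of 13999 genes. The rule took the median of 3 pools in each group, in counts scaled to a library total of 1000000 (CPM), and wrote it as log2(1 + CPM). A transcript with a RefSeq mRNA accession entered when this value was at least 0.9 higher at 10 h than at 0 h, differed by less than 0.5 between 10 h and 24 h, and differed by less than 0.75 between 36 °C and 25 °C at 24 h. Its median at 10 h and 25 °C also had to reach 10 CPM. The rule gives that minimum without a unit, and read as 10 raw counts it takes in 196 transcripts, the 145 among them. The rule therefore used 4 of the 5 groups of libraries, and only the pools kept for 10 h at 36 °C played no part in it.

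The study sequenced testis mRNA in 15 libraries, with pools A, B and C in each group. All pools came from strain AsymC, and the labels give 60 testes for a pool. The groups were white nymphs at 0 h (25 °C), white nymphs after 10 h at 25 °C or at 36 °C, and white nymphs with red eyes after 24 h at 25 °C or at 36 °C. No label says whether the pools of a group came from separate rearings, so p-values measure the spread between these pools only. Because RNA was taken from whole testes, fewer cells of a type and less RNA per cell cannot be told apart.

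Males of this wasp are haploid, and their germ cells pass through spermatogenesis in step during the pupal stage. Primary spermatocytes fill the testis at the white stage and secondary spermatocytes at the red-eyed white stage. The period from 0 h to 24 h thus runs from primary to secondary spermatocytes. The study describes the first meiotic phase as abortive in haploid males, and spermatids arise only after the second. Entry into division is driven by cyclin B bound to the kinase Cdk1, while products for the sperm tail begin to accumulate in spermatocytes before the tail is built. In the fruit fly, many testis transcripts are made in spermatocytes and kept for use in spermatids.

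Library totals ran from 1749769 to 7154421 counts, and all 145 transcripts passed the filter on low counts in every test. The germ line markers fixed for the label check covered 9 genes with 14 transcripts in the files, 2 of which had no count. Their summed level was 812 to 1412 CPM at 0 h, 1695 to 2176 CPM at 10 h and 25 °C, and 2474 to 2605 CPM at 24 h and 25 °C. Most of this sum came from klhl10 (NV13442), at 388 to 724, 1029 to 1364 and 1650 to 2070 CPM in these groups, and from cyclin B, itself a member. Other markers went the other way: nanos measured 6.0 to 6.94, 2.76 to 5.98 and 1.61 to 4.48 CPM, and NV16500, of the piwi family, 11.3 to 18.9, 6.29 to 9.92 and 5.38 to 6.27 CPM. Of the 64 cuticle and Osiris transcripts, which mark epidermis, 14 had no count and none was a member, while their sum reached 9805 CPM in pool A at 24 h and 25 °C against 640 and 695 CPM in pools B and C. No member came from the tested hexamerins of fat body (2), tropomyosins of muscle (2), nicotinic receptors and Syt1 of nerve (5) or serine proteases (8).

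One library stood apart. On the first principal component of 8807 transcripts (47.3% of the variance), the pools at 0 h lay between -62.9 and -37.0, those at 10 h and 25 °C between -16.7 and 23.4, those at 24 h and 25 °C between 38.7 and 67.1, and those at 24 h and 36 °C between 6.70 and 40.0. Pools A and C at 10 h and 36 °C scored -42.2 and -56.1, among the pools at 0 h, and pool B scored 32.1, among the pools at 24 h and 36 °C. Its total of 7154421 counts was near the 6629427 of pool A, whereas pool C had 1808085. HSC70, a heat shock cognate chaperone, measured 6745, 5000 and 6689 CPM in pools A, B and C at 10 h and 36 °C, 3783 to 4368 CPM at 10 h and 25 °C, and 4940 to 5056 CPM at 24 h and 36 °C. LOC100117412 (NV11936) measured 3179, 1692 and 3190 CPM in pools A, B and C at 10 h and 36 °C, and 1367 to 1745 CPM at 24 h and 36 °C. For both genes pool B lay within the range of the pools at 24 h and 36 °C, and pools A and C lay above it. The germ line sum in pools A, B and C at 10 h and 36 °C was 927, 2197 and 737 CPM, with klhl10 at 561, 1574 and 418 CPM, while nanos was at 8.45, 1.82 and 11.1 CPM and NV16500 at 17.3, 5.59 and 13.8 CPM. The cuticle sum was 184, 894 and 169 CPM. On the first component, in HSC70 and in NV11936, pool B thus measured more like the pools at 24 h and 36 °C than like pools A and C. Its nanos level lay below those pools, which were at 4.36, 6.06 and 4.4 CPM. Pools lettered B also scored highest at 0 h (-37.0 against -50.4 and -62.9) and at 10 h and 25 °C (23.4 against -16.7 and -13.3). They did not at 24 h, with 39.4 against 67.1 and 38.7 at 25 °C, and 31.2 against 6.7 and 40.0 at 36 °C. For pool B at 10 h and 36 °C, deviations from group means correlated at 0.52 with pool B at 10 h and 25 °C. With pool B at 0 h and at 24 h and 25 °C they correlated at 0.35 and -0.17. With pools A, B and C at 24 h and 36 °C they correlated at -0.43, 0.13 and 0.35. The label of this pool is in doubt, but whether it is wrong or pools lettered B share a shift was not tested. Tests on the pools at 10 h and 36 °C are given with and without pool B, and the part of these values in them was not tested.

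The values that chose the members are a description. From 0 h to 10 h at 25 °C, log2(1 + CPM) was higher by 0.90 to 3.35, with a median of 1.09. From 10 h to 24 h at 25 °C it changed by -0.42 to 0.49, with a median of 0.21. At 24 h the pools at 36 °C differed from those at 25 °C by -0.75 to 0.73, with a median of -0.18. The mean level at 10 h and 25 °C ran from 8.77 to 3281 CPM with a median of 59.6 CPM, so the set spans rare and very abundant transcripts. By level, the median rise was 1.13 in the 63 members between 10 and 50 CPM, 1.11 in the 41 between 50 and 200 CPM, and 1.01 in the 41 from 200 CPM up. In the same bands the median change from 10 h to 24 h at 25 °C was 0.18, 0.16 and 0.3. The rule bound both values at every level, so these medians cannot show whether level matters.

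The pools did not keep to their medians equally well. All 3 pools at 10 h and 25 °C were above all 3 at 0 h in 72 of the 145 members, and in 10.8% of the 8351 transcripts tested. At 24 h and 25 °C the pools were all above those at 0 h in 106 members (16.7% of all tested), and at 24 h and 36 °C in 105 (22.1% of all tested). Since the rule used these groups, the counts are no support for it. At 0 h pool B was the highest of the 3 in 111 members (37.7% of all tested), and its median member lay 0.60 above the group value on the log2 scale. At 10 h and 25 °C pool A was the lowest in 87 (38.2% of all tested). Taken pool by pool, 10 h was above 0 h in 140 members for letter A, 138 for B and 145 for C, against 37.3%, 37.7% and 42.2% of all tested.

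**Figure D1:**
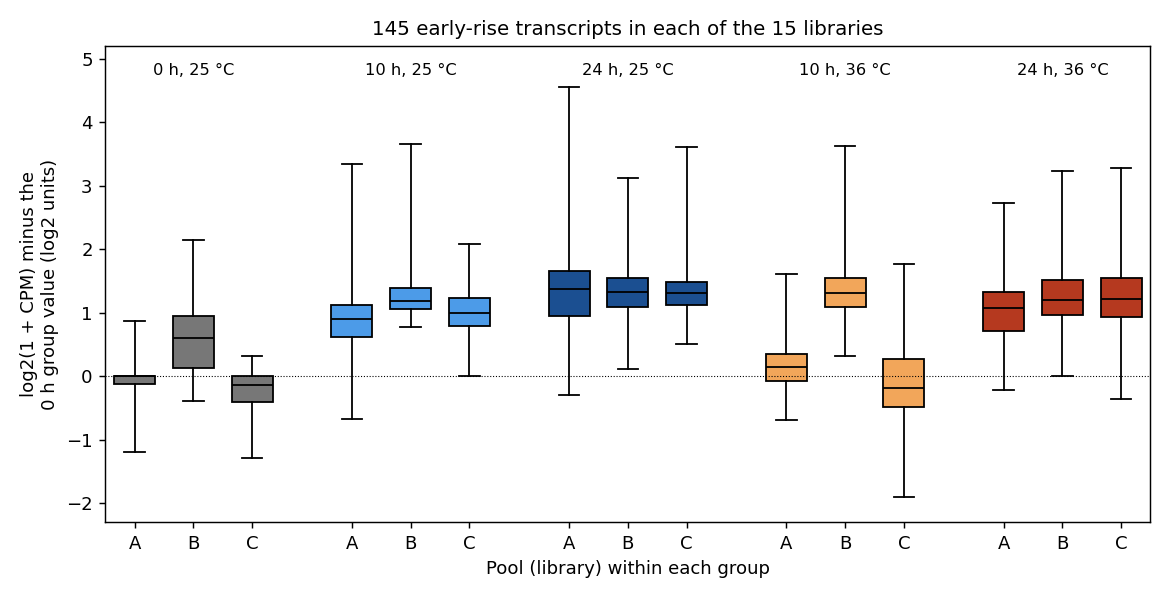
The 145 members in each of the 15 libraries, as log2(1 + CPM) minus the group value of the same transcript at 0 h (log2 units). Boxes show the quartiles and the median over transcripts and whiskers the whole range; the medians of pools A, B and C at 10 h and 36 °C are 0.15, 1.31 and -0.19, against 0.91, 1.19 and 1.0 at 10 h and 25 °C.

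Of 317 transcripts with at least 10 CPM that met the criterion of a rise by 10 h, 173 were level up to 24 h, 136 were higher by a further 0.5 or more at 24 h, and 8 were lower by 0.5 or more. The limit on the difference between temperatures at 24 h then left out 28 of the 173. Transcripts close to a limit differ little across it. LOC100119957 (NV10670) entered with a rise of 0.901 and LOC100119191 (NV13748) stayed out with 0.899. LOC100119016 (NV13743) entered with a change of 0.495 after 10 h, and GeneID 103317480 stayed out with 0.501. For the temperature limit, LOC100115857 (NV13095) entered with a difference of 0.748 in size and GeneID 103317151 stayed out with 0.754. For the minimum, a transcript of LOC100122190 (NV11186) entered at 10.4 CPM and LOC100115747 (NV14790) stayed out at 9.76 CPM.

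Membership depended on single pools. With the mean in place of the median, 62 transcripts met the rule and 43 of them were among the 145. Leaving out pool C at 0 h gave 45 transcripts, 40 of them shared, and leaving out pool B at 10 h and 25 °C gave 74, 61 of them shared. Leaving out pool B at 0 h gave 211, which held 129 of the 145. With library sizes scaled by TMM factors, 161 met the rule and 90 were shared. The set is thus one version of a list whose edge moves with the pools at 0 h and 10 h.

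**Figure D2:**
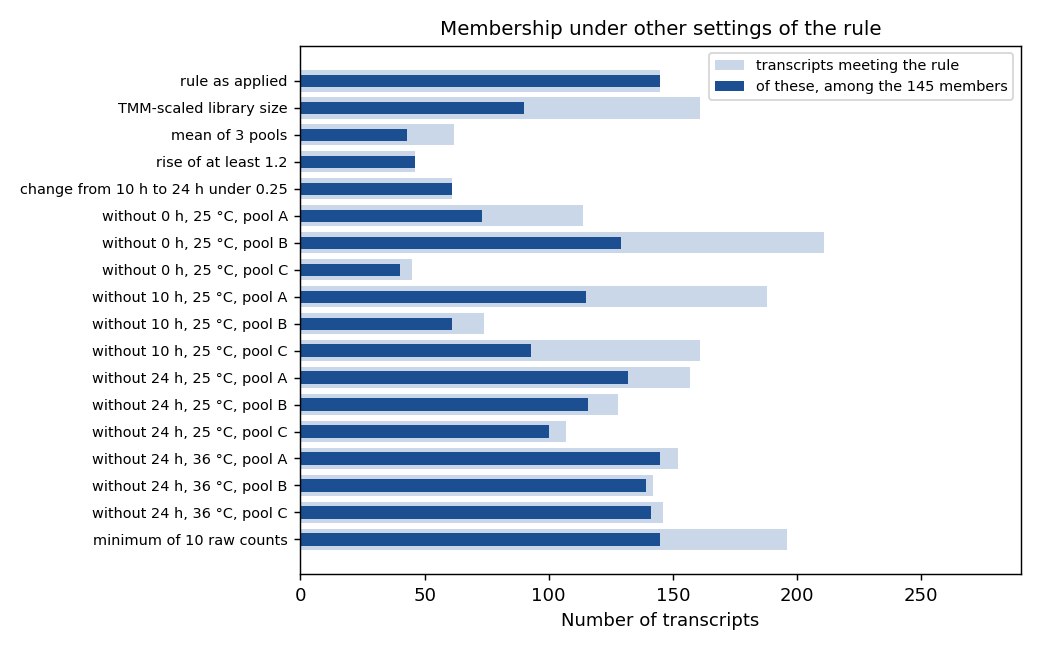
Number of transcripts that met the rule under each setting (light bars) and how many of these are among the 145 members (dark bars). The bars run from 45 transcripts without pool C at 0 h to 211 without pool B at 0 h, and leaving out a pool at 24 h and 36 °C gave 142 to 152.

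Among the cell cycle genes, cyclin B and its kinase partner were both members. Cyclin B (cycB, NV11968), whose rise and destruction time the entry into and exit from division, measured 369, 598 and 348 CPM in pools A, B and C at 0 h. It measured 622, 733 and 722 CPM at 10 h and 489, 734 and 758 CPM at 24 h, both at 25 °C. At 36 °C it measured 300, 554 and 247 CPM at 10 h and 505, 497 and 475 CPM at 24 h. The pools at 10 h and 25 °C were above all others at 0 h and at 36 °C, while pool A at 24 h and 25 °C lay below pool B at 0 h. The study, which compared the white and red-eyed stages, reported cyclin B as very highly expressed and its expression as not modulated during meiosis. The rise given here is instead from 0 h to 10 h, both at the white stage.

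Cdk1 (NV11863) is the kinase that cyclin B activates, and 1 of its 2 transcripts was a member. Its pools measured 35.3, 64.4 and 28.0 CPM at 0 h, 65.3, 73.0 and 79.9 CPM at 10 h and 42.2, 69.0 and 74.7 CPM at 24 h, all at 25 °C. At 36 °C they measured 32.4, 61.6 and 29.9 CPM at 10 h and 61.9, 45.8 and 55.6 CPM at 24 h. As for cyclin B, all pools at 10 h and 36 °C lay below all pools at 10 h and 25 °C.

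These were 2 of the 9 transcripts tested from the list of known meiosis genes. For this and the lists that follow, 145 of all 8351 transcripts tested were members. In the same list Plk4, the kinase that starts centriole duplication, measured 268, 413 and 262 CPM at 0 h and 405, 428 and 468 CPM at 10 h and 25 °C, which is 0.68 on the log2(1 + CPM) scale and below the limit of the rule. LOC100116491 (NV14248) was 0.64 higher. A transcript of LOC100124238 (NV10527) was 1.78 lower, on the same log2 scale. None of the 10 transcripts tested from the list of further meiosis genes was a member.

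Of the 5 genes listed for sperm motility, 1 was a member. NV10434 (LOC100124160), listed by the study as heat, measured 681, 1127 and 594 CPM at 0 h, 1134, 1585 and 1403 CPM at 10 h and 1973, 2022 and 1903 CPM at 24 h, all at 25 °C. At 36 °C it measured 765, 1780 and 685 CPM at 10 h and 1462, 1644 and 1568 CPM at 24 h. Every pool at 10 h and 25 °C was above every pool at 0 h. The other motility genes moved in the same direction by the rule's own measure and missed 1 criterion or more. The study named the motility and spermatid differentiation genes among those it found upregulated when it compared the white and red-eyed stages in this series. Their shared direction is therefore no independent result. NV16259 and NV16467, which the study lists as Kl5 and dynein, were higher at 10 h by 1.17 and 1.44, but NV16259 differed by -0.79 between temperatures at 24 h and NV16467 was higher by a further 0.82 after 10 h. NV10124 and NV14122 were higher by 0.66 and 0.77. None of the 4 tested transcripts each of the spermatid differentiation list and of the axoneme and qRT-PCR list was a member.

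Orthologs of fly genes that the study took from mouse testis genes supplied 4 members, out of 114 such transcripts tested, cyclin B being 1 of them. They made up 2.8% of the members, against 1.4% of the 5443 mRNA transcripts with at least 10 CPM at 10 h and 25 °C. NV14356 (LOC100114116) is the ortholog of fly Ran, a small GTPase that directs nuclear transport and spindle assembly. Of its 4 transcripts, 1 was a member. It measured 9.23, 32.4 and 12.6 CPM at 0 h, 17.0, 30.2 and 30.9 CPM at 10 h and 35.5, 40.8 and 32.5 CPM at 24 h, all at 25 °C. At 36 °C it measured 17.0, 35.6 and 9.96 CPM at 10 h and 29.2, 26.9 and 28.0 CPM at 24 h. Pool B at 0 h was above all pools at 10 h and 25 °C, so that the groups overlapped.

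NV15618 (LOC100121633), with 9 transcripts, is the ortholog of fly mrj, a DnaJ-family co-chaperone. Its 1 member transcript measured 15.5, 34.2 and 14.9 CPM at 0 h and 28.2, 34.3 and 36.4 CPM at 10 h and 25 °C. Again the groups overlapped, with pool B at 0 h above pool A at 10 h. At 10 h and 36 °C its pools measured 18.9, 47.0 and 23.8 CPM. NV16841 (LOC100120910), with 3 transcripts, is the ortholog of fly CG44836. Its 1 member transcript measured 14.1, 32.7 and 12 CPM at 0 h and 29.1, 50.7 and 49.6 CPM at 10 h and 25 °C. At 10 h and 36 °C it measured 20.7, 62.3 and 10.5 CPM, the highest and the lowest of these 9 pools being in that group.

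Among the 99 transcripts of oxidative phosphorylation, 73 were tested and 1 was a member. This was 1 of the 2 transcripts of Cox7a1 (NV15174), a subunit of cytochrome c oxidase. It measured 19.4, 26.8 and 20.6 CPM at 0 h, 38, 45.6 and 48.0 CPM at 10 h and 64.3, 61.8 and 40.3 CPM at 24 h, all at 25 °C. At 36 °C it measured 29.7, 49.5 and 26.0 CPM at 10 h and 38.9, 40.9 and 39.2 CPM at 24 h. Its pools at 0 h lay below all later pools at 25 °C, while pool C at 10 h and 36 °C lay below pool B at 0 h. The sum over the whole list went the other way, with 13806 to 16883 CPM at 0 h and 12402 to 14863 CPM at 10 h and 25 °C.

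Of the odorant and gustatory receptors, which detect volatile and contact chemicals, 32 transcripts were tested and 1 was a member. Or266 (NV23128) measured 23.5, 33.3 and 27.4 CPM at 0 h, 60.5, 68.0 and 50.2 CPM at 10 h and 95.0, 78.0 and 77.1 CPM at 24 h, all at 25 °C. At 36 °C it measured 38, 97.6 and 40.9 CPM at 10 h and 108, 126 and 128 CPM at 24 h. Each pool at 10 h, at either temperature, was above each pool at 0 h, and the pools at 24 h and 36 °C were the highest of all.

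The yellow family, named for a fly gene of cuticle pigmentation, supplied 2 members among 6 transcripts tested. Y-f (NV19097) measured 81.5, 41.9 and 53.7 CPM at 0 h, 103, 116 and 73.3 CPM at 10 h and 61.1, 77.5 and 77.1 CPM at 24 h, all at 25 °C. At 36 °C it measured 51.3, 79.4 and 39.8 CPM at 10 h and 49.4, 71.6 and 80.5 CPM at 24 h. Pool A at 0 h was above pool C at 10 h and 25 °C, and for Y-f pool B was the lowest at 0 h. Y-x1b (NV17277) measured 16.2, 9.80 and 4.57 CPM at 0 h and 14, 19.2 and 19.3 CPM at 10 h and 25 °C, so that in pool A it was lower at 10 h than at 0 h. It measured 16.1, 21.5 and 21.1 CPM at 24 h and 25 °C, and at 36 °C 8.60, 16.4 and 7.74 CPM at 10 h and 16.9, 25.0 and 24.0 CPM at 24 h.

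**Figure D3:**
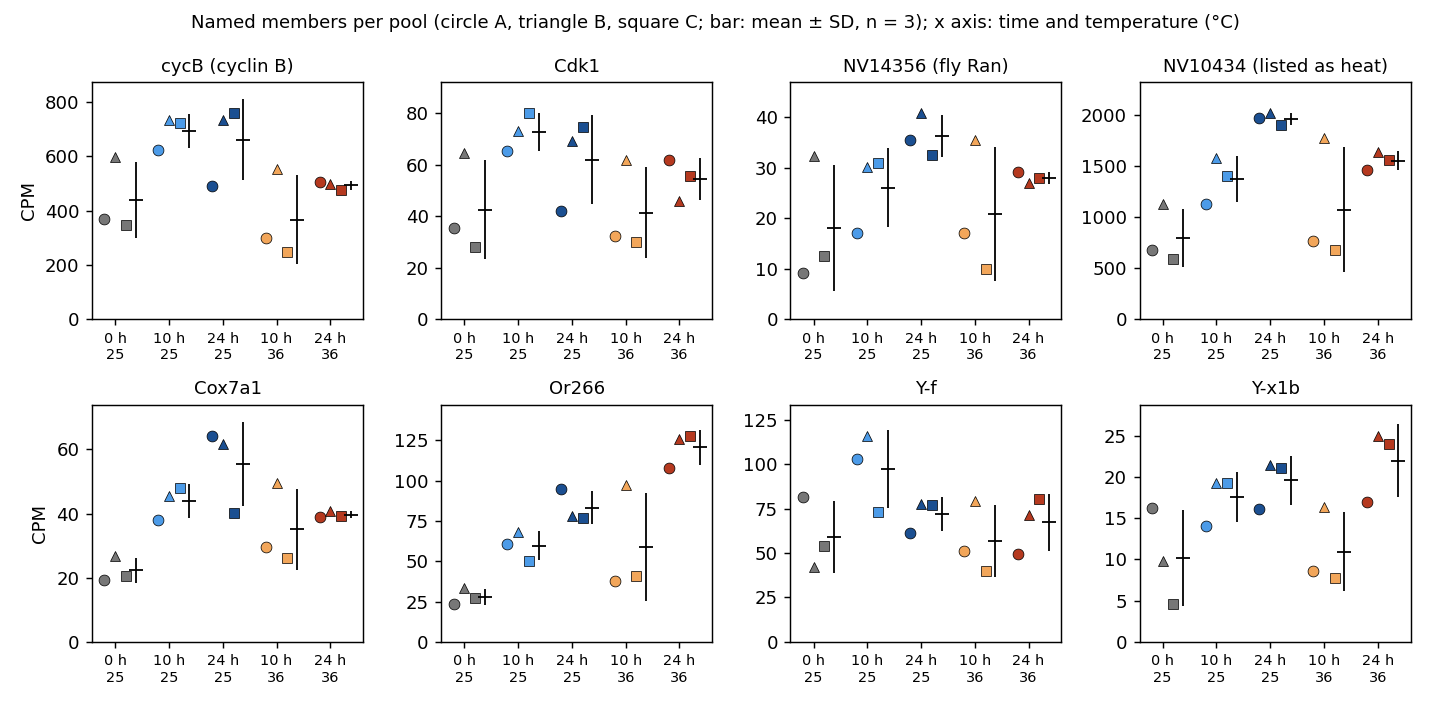
CPM of 8 named members in each pool (vertical axes in CPM from 0), with pool A as a circle, pool B as a triangle and pool C as a square, and the mean ± SD of the 3 pools beside them. At 10 h and 36 °C the triangle lies above the other symbols in all 8 panels, for example at 1780 CPM against 765 and 685 CPM for NV10434.

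The 12 members with the highest CPM, a scale that is not corrected for transcript length, carried no descriptive symbol. LOC100680268 measured 1607, 2457 and 1341 CPM at 0 h, 2901, 3735 and 3207 CPM at 10 h and 3959, 4019 and 4159 CPM at 24 h, all at 25 °C. At 36 °C it measured 1776, 4289 and 1262 CPM at 10 h and 3577, 3755 and 3812 CPM at 24 h. Its pools at 10 h and 25 °C did not overlap those at 0 h, and pools A and C at 10 h and 36 °C were within or below the range at 0 h. LOC103315666, LOC103315641, LOC100679096, LOC103317746 and LOC100680021 followed in that order, and none of these 6 had an NV number. The remaining 6 of the highest 12 were LOC100115767 (NV11286), NV10434, LOC100123575 (NV12389), LOC100118000 (NV16213), LOC100124250 (NV10542) and LOC100117449 (NV19252). All 12 came from genes with 1 transcript.

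The largest proportional difference between 0 h and 10 h belonged to GeneID 103315646, at 13.2 times between the group medians. It measured 3.0, 16.7 and 1.71 CPM at 0 h and 39.7, 49.4 and 14.3 CPM at 10 h and 25 °C, with pool B at 0 h above pool C at 10 h. LOC103318004 followed at 5.0 times, with 48.5, 147 and 34.9 CPM at 0 h and 251, 242 and 92.6 CPM at 10 h and 25 °C. In both, the groups at 0 h and 10 h overlapped.

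Some features of the members were not used by the rule. Of the 145, 58 (40.0%) had no NV number, against 25.7% of the 5443 mRNA transcripts with at least 10 CPM at 10 h and 25 °C. Genes with a single annotated transcript supplied 72 members (49.7%), against 79.5% of the 5443. The gap was found below 200 CPM: 25.4% against 64.7% between 10 and 50 CPM, 41.5% against 87.5% between 50 and 200 CPM, and 95.1% against 96.3% from 200 CPM up. A descriptive symbol was held by 6 members (4.1%), against 5.2% of the 5443. A gene ID in the names table was held by 134 (92.4%), against 92.7%, so both shares were near those of the 5443.

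The 71 member genes with several transcripts had 158 other transcripts, of which 72 had no count and 15 reached 10 CPM. Of these 15, 13 were higher at 10 h than at 0 h and 2 by at least 0.9. Among the 5443 mRNA transcripts with at least 10 CPM, 317 were higher by at least 0.9. How many of the 5443 were higher by any amount was not counted, so the 13 cannot be set against a share. LOC103317971 and LOC100122190 each supplied 2 member transcripts. With all transcripts of a gene summed, all 71 genes were higher at 10 h, 53 of them by at least 0.9, and the median rise was 1.09. These sums include the member transcripts, which the rule chose for their rise. The rise of the sums is thus largely built in and is no support at the level of genes. The members held a median of 94.3% of the CPM of their gene. For named genes with several transcripts, the values given are those of the member transcript alone. The sources do not state how reads in exons shared by transcripts were assigned, so the split within a gene is uncertain.

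In a newer assembly, Nvit_psr_1.1, 132 of the 143 genes had a place, and 1 pair of neighbours was found, LOC100121303 (NV16466) and LOC103316700. The former measured 367, 714 and 335 CPM at 0 h and 526, 819 and 700 CPM at 10 h and 25 °C, and the latter 19.4, 41.8 and 15.4 CPM and 33.9, 55.4 and 49.1 CPM. Chromosomes 1 to 5 held 19, 32, 31, 26 and 24 member genes, which is 1.79% to 3.60% of their genes with a transcript of at least 10 CPM. The members were thus spread over all 5 chromosomes.

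At 10 h the members were compared between 36 °C and 25 °C, a contrast the rule did not use, although it had picked the members for being high in the pools at 25 °C. Lower values in any other group are in part built in by that choice, and the share called over all transcripts is no measure of what members chosen this way would show without a change. With all 3 pools, no member passed in edgeR's quasi-likelihood test with Benjamini-Hochberg adjustment, at an adjusted p under 0.05. Over all 8351 transcripts, 2.24% passed as higher and 1.38% as lower at 36 °C. The fitted log2 fold change was below 0 in 135 of the 145 members, with a median of -0.46 against 0.00 over all transcripts, and 13 members had an unadjusted p under 0.05, against 18.7% of all tested. DESeq2 called 2 members lower and none higher (2.56% and 3.29% of all tested): GeneID 103316201 with an adjusted p of 0.0208 and cycB with 0.0387.

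All 3 pools at 10 h and 36 °C were below all 3 at 10 h and 25 °C in 5 members, which is 3.4% of the members against 7.87% of all transcripts tested. GeneID 103316201 measured 72.7, 56.0 and 52.9 CPM at 25 °C and 22.8, 41.0 and 13.3 CPM at 36 °C. Its log2 fold change was -1.19 (SE 0.334, adjusted p = 0.0656), the lowest adjusted p of any member. For cycB it was -0.91 (SE 0.290, adjusted p = 0.0980), and for Cdk1 -0.79 (SE 0.282, adjusted p = 0.142). LOC100122359 (NV11978) measured 17.0, 22.3 and 22.1 CPM at 25 °C and 7.39, 14.8 and 7.74 CPM at 36 °C, with an adjusted p of 0.0971. LOC100115763 (NV11014) measured 9.17, 13.8 and 11.6 CPM and 5.28, 6.57 and 7.74 CPM, with an adjusted p of 0.0926. With all pools none of the 5 passed the threshold in edgeR, and without pool B all 5 did: GeneID 103316201 at -1.79 (adjusted p = 0.000207), LOC100122359 at -1.53 (adjusted p = 0.00104), LOC100115763 at -0.99 (adjusted p = 0.0295), and cycB and Cdk1 as given with the fit without that pool. For NV10434 the change was -0.33 (SE 0.355, adjusted p = 0.655) and for Or266 0.00 (SE 0.351, adjusted p = 0.997).

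The members split the pools at 10 h and 36 °C in a uniform way. Pool B was above both pools A and C in 142 of the 145, against 33.2% of all transcripts tested, and at least 1.5 times both in 133, against 17.5%. The ratio of pool B to the mean of A and C, with 1 CPM added to each, had a median of 2.49 over the members and 0.83 over the 8206 other transcripts tested. Among the transcripts that met the rise criterion but were higher again at 24 h, the ratio had a median of 3.26, so the split was found outside the members too. The exceptions were LOC100118491 (NV11861), LOC100124165 (NV10441) and LOC100115763.

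Pools A and C were both below all 3 pools at 10 h and 25 °C in 113 members (22.6% of all tested), and both at or below the highest pool at 0 h in 127 (68.1% of all tested). Pool B reached at least the lowest pool at 10 h and 25 °C in 140 (64.8% of all tested) and was above all 3 of them in 87 (23.1% of all tested). Compared letter by letter, the pool at 36 °C was below the pool at 25 °C in 126 members for A, 43 for B and 137 for C, against 41.2%, 57.2% and 45.2% of all transcripts tested. In the members, pools A and C thus measured near the level at 0 h and pool B at or above the level at 10 h and 25 °C. Its median of 1.31 above 0 h on the log2 scale compared with 0.91, 1.19 and 1.0 in the pools at 10 h and 25 °C, and with 1.37, 1.33 and 1.31 in those at 24 h and 25 °C.

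Without pool B, the same fit called 107 members lower at 36 °C than at 25 °C and none higher, where the choice of members again favours lower values. The share of all transcripts called also grew, to 14.8% lower and 12.2% higher of 8485 transcripts tested. The median log2 fold change of the members was then -1.19, against -0.01 over all transcripts. For cycB the change was -1.44 (adjusted p = 6.15e-05), for Cdk1 -1.31 (adjusted p = 0.000362) and for NV10434 -1.03 (adjusted p = 0.00127). For Or266 it was -0.72 (adjusted p = 0.0172). Leaving out pool A or pool C at 36 °C in place of B called no member, with medians of -0.20 and -0.15 and 4 members at an unadjusted p under 0.05 in each, against 12.8% and 13.8% of all tested. The call on the members therefore rests on whether pool B is counted, and 2 pools then stand for the group.

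**Figure D4:**
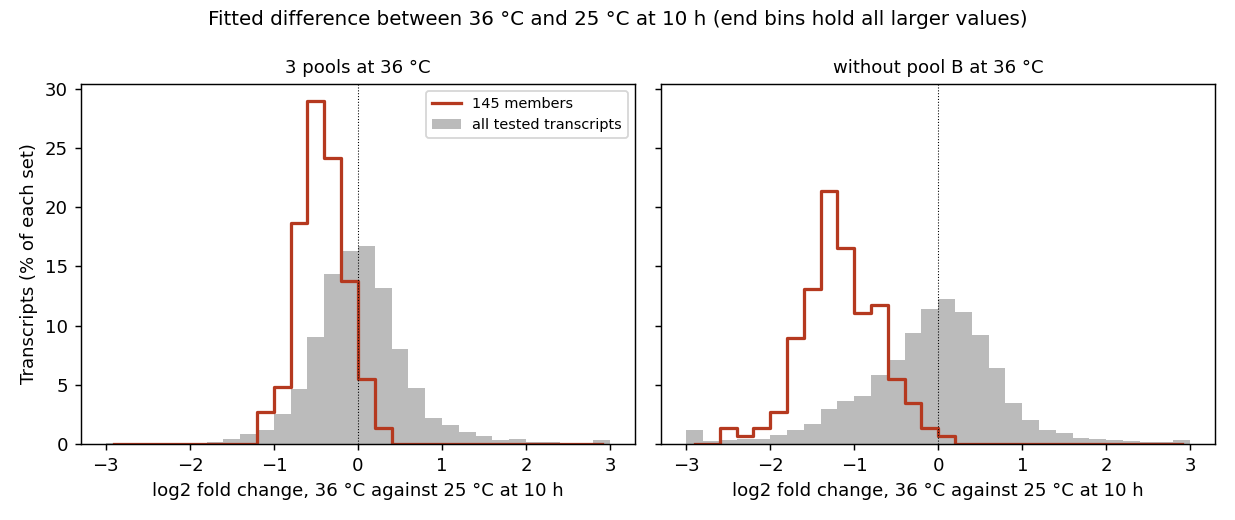
Fitted log2 fold change between 36 °C and 25 °C at 10 h, as the share of the 145 members (line) and of all transcripts tested (grey bars) in bins along the horizontal axis, with all 3 pools at 36 °C (left) and without pool B (right). The median of the members is -0.46 on the left and -1.19 on the right, while that of all transcripts is 0.00 and -0.01.

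By list, the same contrast called none of the 5 sperm motility transcripts with all pools, and all 5 as lower without pool B. The study named these genes and those for spermatid differentiation among genes it found upregulated over these stages, and both lists hold NV16259. Lower values in pools A and C, near the level at 0 h, are thus in part built in. Over all transcripts tested, 2.24% were higher and 1.38% lower with all pools, and 12.2% and 14.8% without pool B. Of the 9 known meiosis transcripts none was called with all pools, and without pool B 4 were lower and 2 higher. Of the 10 further meiosis transcripts 1 was lower with all pools, and 2 without pool B. Of the 4 spermatid differentiation transcripts none was called with all pools and 3 were lower without pool B. Of the 4 of the axoneme and qRT-PCR list 1 was higher in both fits and 1 was lower without pool B. The 73 transcripts of oxidative phosphorylation gave 2 higher and 0 lower with all pools, and 13 higher and 6 lower without pool B. Of the 114 transcripts of the fly orthologs, 8 were higher and 2 lower with all pools, and without pool B 24 of 117 were higher and 21 lower.

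The pools at 10 h and 36 °C were next set against those at 0 h, in which the members had been picked for being low, so that higher values elsewhere are in part built in. No member passed in edgeR, where 0.652% of 8894 transcripts were called higher and 0.180% lower. The log2 fold change was above 0 in 137 members, with a median of 0.66 against 0.03 over all transcripts, and 14 members had an unadjusted p under 0.05, against 14.1% of all tested. DESeq2 called none (1.87% higher and 0.787% lower of all tested), with 23 members at an unadjusted p under 0.05, against 12.7% of all tested. All 3 pools at 36 °C were above all 3 at 0 h in 7 members, which is 4.8%, against 7.70% of all tested. Or266 was among them, with a log2 fold change of 1.27 (SE 0.439, adjusted p = 0.238).

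Without pool B the median over the members turned to -0.16, against -0.05 over all transcripts, and again none was called (1.42% higher and 0.457% lower of 8755 tested), with 8 members at an unadjusted p under 0.05, against 15.7% of all tested. For Or266 the fold change was then 0.50, for Cox7a1 0.34, for NV10434 -0.12 and for cycB -0.66 (SE 0.261, adjusted p = 0.25). Pool B alone was above all 3 pools at 0 h in 125 members, against 27.6% of all transcripts tested. Relative to the group value at 0 h, the median member was 0.15 higher in pool A, 1.31 higher in pool B and at -0.19 in pool C, on the log2 scale.

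From 10 h to 24 h at 36 °C the members were also tested, with the end point bound by the rule to lie near that at 25 °C. No member passed in edgeR, and of all 8351 transcripts 0.0599% were called higher and 0.0120% lower. The log2 fold change was above 0 in 143 members, with a median of 0.60 against 0.00 over all transcripts, and 22 had an unadjusted p under 0.05, against 20.1% of all tested. DESeq2 called 1 member, LOC100121187 (NV14608), as higher (adjusted p = 0.0499; 1.05% higher and 1.26% lower of all tested). It measured 423, 683 and 397 CPM at 10 h and 895, 852 and 858 CPM at 24 h, so that its pools did not overlap. In edgeR without pool B its log2 fold change was 1.25 (adjusted p = 0.000337).

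Without pool B, 126 members were called higher at 24 h and none lower, against 17.9% higher and 16.9% lower of 8485 transcripts tested, and the median was 1.32 against 0.01. Leaving out pool A or C at 10 h and 36 °C called no member, with medians of 0.35 and 0.26 and 7 and 9 members at an unadjusted p under 0.05, against 9.03% and 9.78% of all tested. At 24 h the pools at 36 °C were close to one another in the members: their median levels above 0 h were 1.07, 1.2 and 1.22 in pools A, B and C on the log2 scale, against 1.37, 1.33 and 1.31 at 25 °C. The 3 contrasts share the pools at 10 h and 36 °C, and their counts are not independent of one another.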

How the data were processed

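Testis mRNA was sequenced in 15 libraries (3 pools in each of 5 groups). Alignment to Nvit_2.1 was done by the authors with TopHat2, version 2.1.0 in the submitters' notes. Their methods name htseq-count for counting reads over RefSeq transcripts, whereas those notes name featureCounts 1.6.3. The deposited raw counts came in 6 tables of comparisons with 26279 transcripts each, and the 39 count columns held by more than 1 table were identical in all 39. The authors' fold changes and p-values were left aside, as were 54 columns of normalized values. In all, 8884 transcripts had no count.

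These counts were filtered with filterByExpr, scaled by TMM and tested with the robust quasi-likelihood method of edgeR 4.0.16 in R 4.3.3, with p-values adjusted by Benjamini-Hochberg over all transcripts tested (threshold 0.05), a single adjusted p being from it unless DESeq2 is named. The contrasts between temperatures and from 10 h to 24 h at 36 °C used the 12 libraries at 10 h and 24 h, and that against 0 h the 6 of its groups. Alternatives were DESeq2 1.42.0, RLE factors, no filter, other libraries in the fit, the pool letter as a block and leaving out each pool. The edgeR test between temperatures at 10 h was also tried on simulated counts with the same spread for every transcript. That simulation held no pool apart from the rest of its group. Neither the rule nor DESeq2 was run on it. The remaining steps were run in Python 3.11.15 (numpy 2.4.6, pandas 2.3.3) and plotted with matplotlib 3.10.9.

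The members and the lists were chosen with earlier results of these data known. Named members are the 12 most abundant at 10 h and 25 °C, those on the gene lists, those with a descriptive symbol, and those nearest to a limit of the rule. The 6 largest changes among members that passed with no overlap between pools were also to be named in each contrast, and none passed. Others were chosen after their values were seen: the neighbouring pair, the genes with several member transcripts, those with the largest rise, and those with no overlap between temperatures, DESeq2 calls or exceptions to the order of the pools. Symbols and the order of genes came from a RefSeq table of Nvit_psr_1.1, of which no coordinates were used.

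Deviations from group means correlated between pools of the same letter at 10 h and 25 °C and at 10 h and 36 °C with r of 0.21 to 0.52 over transcripts. Between different letters r was -0.46 to 0.24, so the ranges overlapped slightly. The letters were taken to pair these groups, but the main test did not use the pairing. The block left the count of members called between temperatures at 0, with an adjusted p of 0.0589 for cycB in edgeR.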

Additional observations from a re-analysis of the deposited data

How the results depend on the processing

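The counts of members called were 0 in the 3 contrasts as reported. Between temperatures at 10 h, DESeq2 called 2 lower, and leaving out 1 pool gave 0 to 107 lower, the highest without pool B at 36 °C. Against 0 h, 1 member passed with all 15 libraries in the fit and 9 with the replicate block, while leaving out 1 pool gave 0 throughout. For the latter groups and for 10 h against 24 h at 36 °C, where the block called 0, the samples share only a letter: same-letter correlations were 0.07 to 0.35 and -0.26 to 0.39, not all of them high enough to pair the pools. Between 0 h and 10 h at 25 °C the same-letter pools correlated at 0.42, 0.26 and 0.13. From 10 h to 24 h at 36 °C, DESeq2 called 1 higher and leaving out 1 pool gave 0 to 126, again the highest without pool B at 10 h. RLE factors, no filter and fits of 6 libraries called 0 members in each contrast they were run in.

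The median log2 fold change over members ran from -1.19 to -0.15 between temperatures, from -0.16 to 0.96 against 0 h, and from 0.26 to 1.32 from 10 h to 24 h when 1 pool was left out, and it changed sign only against 0 h without pool B at 36 °C (-0.16). For cycB against 0 h (-0.07 as reported) leaving out 1 pool gave -0.66 to 0.22, with 0.22 without pool B at 0 h, and 0.09 and 0.19 without pool A or C at 36 °C. For Cdk1 against 0 h (0.14) it gave -0.45 to 0.56, with -0.10 without pool C at 0 h and -0.45 without pool B at 36 °C, and for NV10434 -0.12, without that pool, to 0.95. For Or266 between temperatures (0.00) the change was -0.01 with DESeq2 and with RLE factors, -0.02 with all 15 libraries, -0.08 with the replicate block, and -0.72 (without pool B at 36 °C) to 0.27 when 1 pool was left out, with -0.14 without pool C at 25 °C. The cause of these changes was not tested.

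The rule gave 62 transcripts with the mean of the pools, 46 with a minimum rise of 1.2, 61 with a limit of 0.25 on the change after 10 h, 45 to 211 when 1 pool was left out, and 161 with TMM-scaled library sizes. The minimum of 10 raw counts (196) was added after seeing the data. Limits: the lowest count of a member in any library was 1, and its median over members was 37, so rare members carry large counting error, and a p that misses the threshold with 3 pools does not show that levels were equal.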
